A study of Homo sapiens with 6 samples.

Results

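BCL2 family transcripts were compared between control and EHD1-depleted cells of TC71, a human Ewing sarcoma (EWS) cell line. The 10 genes described were BCL2, BCL2L1 (BCL-xL), BCL2L2 (BCL-w), MCL1, BAK1, BCL2L11 (BIM), BID, BAD, BIK and BMF, chosen by symbol from a table of 60676 genes, and each matched 1 row. TC71 cells carried a lentiviral vector that expresses GFP and an shRNA under doxycycline (Dox), encoding either a non-targeting control (shNTC) or an shRNA against EHD1 (shEHD1), and the puromycin-selected lines were polyclonal. All 6 libraries, 3 of each line, came from cells given 0.5 µg/ml Dox for 3 days. The groups thus differed in the transduced line and its shRNA and shared the Dox. The sources used here do not say which EHD1 shRNA was sequenced or whether replicates were separate cultures, and p-values therefore measure only the spread between these libraries, which may be technical. The labels give a single shEHD1 group in a single cell line. Effects of EHD1 loss, of the shRNA itself and of other differences between the transduced lines therefore cannot be told apart.

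Proteins of the BCL2 family decide whether the outer mitochondrial membrane stays intact. The antiapoptotic members (BCL2, BCL-xL, BCL-w, MCL1) hold the effectors BAX and BAK in check, while the BH3-only members (BIM, BID, BAD, BIK, BMF) bind into a groove of the antiapoptotic proteins through a short helix called the BH3 domain, and BIM and BID can also act on the effectors directly. When the effectors form pores, cytochrome c leaves the mitochondria and caspases are activated. EHD1 is an endocytic recycling protein whose loss was studied in EWS cells together with apoptosis, and the question asked of these data was how family transcripts stood in EHD1-depleted cells.

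The coding bases of the BH3 core are printed for all 10 members because this is the stretch through which BH3-only proteins and effectors engage the groove of antiapoptotic members, and a version of it is found in the antiapoptotic members too. A script searched the coding sequence of each GENCODE v44 canonical transcript (hg38) for leucine or methionine, 3 further residues, then glycine, alanine or serine, then aspartate. The pattern matched once in 9 members and 2 times in BID, for which the match holding glycine is shown. Capitals mark the first codon (leucine, or methionine in BCL2L2) and the last codon (aspartate), and each line gives the 18 bases 5′ to 3′ on the gene's own strand.
BCL2 (chr18:63318361-63318378, minus strand): CTCcgccaggccggcGAC
BCL2L1 (chr20:31721934-31721951, minus strand): CTGagggaggcaggcGAC
BCL2L2 (chr14:23307903-23307920, plus strand): ATGcgggcagctggaGAT
MCL1 (chr1:150578877-150578894, minus strand): TTAcgacgggttgggGAT
BAK1 (chr6:33575399-33575416, minus strand): CTCgccatcatcgggGAC
BCL2L11 (chr2:111150103-111150120, plus strand): TTGcggcgtattggaGAC
BID (chr22:17739427-17739444, minus strand): CTCgcccaggtcgggGAC
BAD (chr11:64271634-64271651, minus strand): CTCcggaggatgagtGAC
BIK (chr22:43127716-43127733, plus strand): CTGgcctgcatcgggGAC
BMF (chr15:40104207-40104224, minus strand): CTTcagtgcattgcaGAC
The canonical proteins ran from 160 residues for BIK to 350 residues for MCL1, and BCL2L2, at 193 residues, was the shortest of the 4 antiapoptotic members.

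Library totals ran from 22711235 to 30582187 counts. EHD1, the target of the shRNA, was lower in every shEHD1+Dox library, at 7.15 to 9.37 CPM (the count of a gene relative to its library's total count, scaled by TMM factors) against 26.4 to 28.0 CPM in the controls, and fell by 1.76 on the log2 scale (SE 0.12, edgeR adjusted p = 1.35e-04). All 7 Ewing sarcoma markers reached 10 counts in every library, with summed levels of 1255 to 1313 CPM in shNTC+Dox and 1293 to 1410 CPM in shEHD1+Dox, although STEAP1 fell (-0.43) and CD99 rose (0.33) by the edgeR test. None of 5 blood cell markers reached that count in all libraries (0.190 to 0.582 against 0.0646 to 0.246 CPM summed, 2 of them at 0 throughout). Fibroblast markers summed to 86.0 to 142 CPM against 114 to 138 CPM, most of it from PDGFRB, and DCN among them fell from 4.85 ± 0.53 to 2.40 ± 0.25 CPM (-1.01 on the log2 scale, edgeR adjusted p = 0.00779). These 4 markers are named after their values were seen. Summed epithelial markers, of which 2 of 5 reached 10 counts in every library, were at 27.2 to 31.6 CPM against 34.1 to 40.2 CPM, without overlap between the groups. Neither of the 2 tested epithelial markers passed the edgeR test. Libraries of the groups did not overlap, in either direction, for 39.3% of all genes tested. The part of these marker genes in the member results was not tested. In these bulk libraries of a single line, fewer cells that hold a transcript and less of it per cell cannot be told apart. The shNTC+Dox replicate 3 stood apart from the other controls: the chi-square of counts per degree of freedom was 25.6 and 27.1 against them, and 5.56 between the other 2. Among the depleted libraries, shEHD1+Dox replicate 2 had values of 18.04 and 16.82 against the others, which had 7.59 between them.

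EHD1-depleted cells held less of 4 family transcripts, 3 of them antiapoptotic. BCL2L2 fell to 39.5% of its control level, and BCL2, MCL1 and BMF fell to between 73.2% and 77.2%. Of the 10 members, 9 passed the filter of 10 counts in 3 libraries, and 4 passed an edgeR adjusted p of 0.05, all lower in shEHD1+Dox. Among all 16785 genes tested, 17.3% passed in either direction, 8.75% as lower and 8.59% as higher. No member rose by edgeR, with 0 also at an unadjusted p under 0.05 and 0 by the DESeq2 Wald test. All 9 tested members had log2 fold changes below 0, with a median of -0.29 against 0.0008 over all genes tested, of which 8379 were below 0 and 8406 above. For 7 of the 9 members all shEHD1+Dox libraries were below all shNTC+Dox libraries, a pattern met by 19.4% of all genes tested. The members were chosen with earlier results of these data known, so these contrasts with all genes describe the list and test nothing. Of 10 other BCL2 family genes tested, 6 were below 0 and 4 above. The member count fell to 2 without shEHD1+Dox replicate 1 or without shEHD1+Dox replicate 3.

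**Figure D1:**
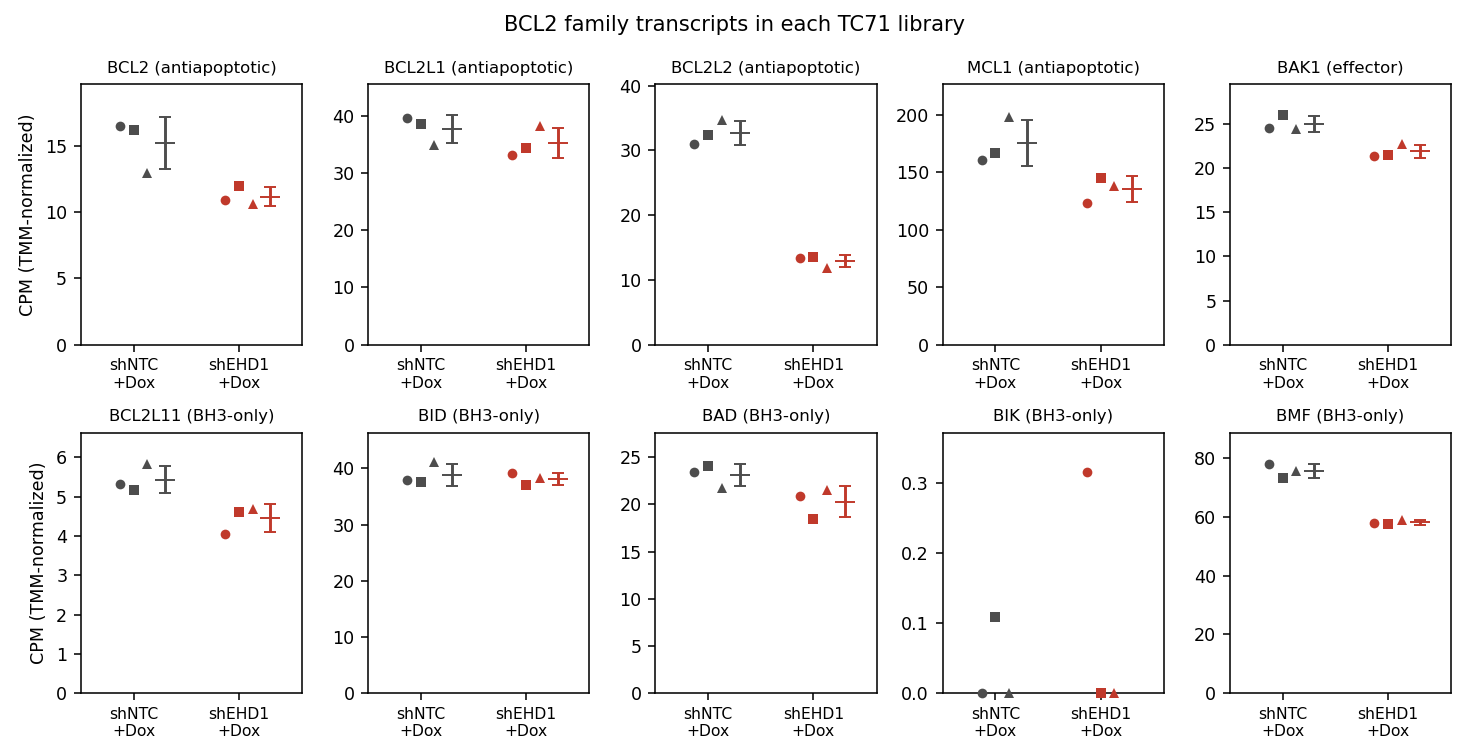
TMM-normalized level (CPM, vertical axes from 0) of each family member in the 3 shNTC+Dox (grey) and 3 shEHD1+Dox (red) libraries, with circles, squares and triangles for replicates 1, 2 and 3 and crossbars for mean ± SD, which are left out for BIK. The BCL2L2 libraries sit between 31.0 and 34.8 CPM in shNTC+Dox and between 11.9 and 13.5 CPM in shEHD1+Dox, while the BCL2L1 and BID libraries of the groups intermingle.

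BCL2L2 (ENSG00000129473, chr14:23298790-23311751, plus strand) encodes BCL-w, an antiapoptotic member. The controls gave 817, 898 and 776 counts, and cells with shEHD1 gave 382, 331 and 368. Scaled to library size these were 31.0, 32.4 and 34.8 CPM against 13.4, 13.5 and 11.9 CPM. The groups were far apart, with the highest shEHD1+Dox library below the lowest control library, and both groups were tight. The mean went from 32.7 ± 1.87 to 12.9 ± 0.92 CPM (SD, n = 3 each). On the log2 scale the gene fell by 1.34 (SE 0.10, edgeR adjusted p = 1.53e-04), and only 1.5% of genes tested had a lower log2 fold change. It was the only member past a 2-fold change, which 1.74% of all genes tested met as lower and 2.82% met in either direction. When each library was left out in turn, the log2 fold change stayed between -1.38 and -1.28 and the adjusted p reached at most 0.00237.

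BCL2L2 shares 815 exonic bases, on the same strand, with BCL2L2-PABPN1, a read-through gene that joins it to the neighbouring PABPN1, and how the counting treated reads in shared exons is not given in the sources used here. BCL2L2-PABPN1 had counts of 349, 521 and 235 in shNTC+Dox against 351, 268 and 397 in shEHD1+Dox. Its groups overlapped, at 14.2 ± 4.23 and 12.0 ± 0.97 CPM (log2 fold change -0.24, SE 0.20, edgeR adjusted p = 0.444), and without shNTC+Dox replicate 2 the value was 0.01. PABPN1, a poly(A)-binding protein gene, stood at 137 ± 18.6 and 116 ± 5.92 CPM (-0.24, SE 0.10, edgeR adjusted p = 0.120). With the counts of BCL2L2 and the read-through gene added together, the log2 fold change was -0.91 (edgeR adjusted p = 3.38e-04), a sum chosen after the data were seen. PPP1R3E, a glycogen phosphatase subunit gene on the opposite strand with 315 shared exonic bases, stood at 9.91 ± 2.24 and 10.1 ± 2.18 CPM (0.04, SE 0.21, edgeR adjusted p = 0.920). The library kit did not mark strand, so reads over exons shared with an opposite-strand gene cannot be assigned by strand. Summed with both BCL2L2-PABPN1 and PPP1R3E, BCL2L2 gave -0.69 (edgeR adjusted p = 0.00123). HOMEZ, with 149 shared exonic bases on the opposite strand, had no matching identifier among the deposited counts and was left out of this sum. With the read-through gene and PABPN1, BCL2L2 gave -0.39 (edgeR adjusted p = 0.0127, also chosen after the data were seen).

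**Figure D2:**
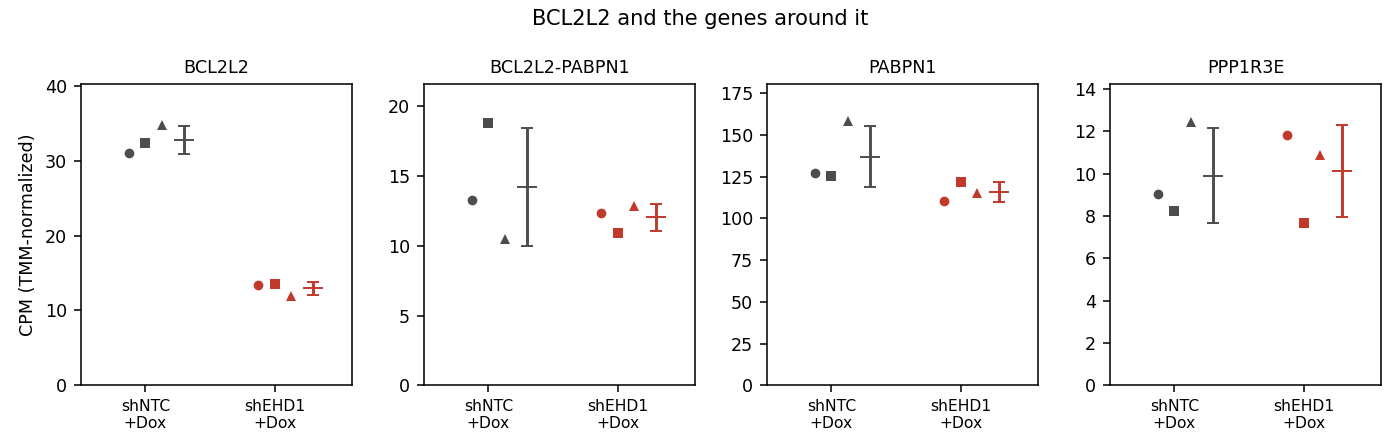
Levels in CPM of BCL2L2 and of the genes at its locus in each library, with shNTC+Dox in grey, shEHD1+Dox in red, circles, squares and triangles for replicates 1, 2 and 3 and crossbars for mean ± SD. BCL2L2 separates the groups (32.7 against 12.9 CPM on average), while the libraries of BCL2L2-PABPN1 and PPP1R3E overlap between them.

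MCL1 (ENSG00000143384, chr1:150560895-150579738, minus strand) encodes a short-lived antiapoptotic protein. Its counts were 4239, 4607 and 4432 in shNTC+Dox against 3502, 3552 and 4264 in shEHD1+Dox, or 161, 166 and 198 CPM against 123, 145 and 138 CPM. Every shEHD1+Dox library was below every control, and shNTC+Dox replicate 3 was the highest of the 6. MCL1 went from 175 ± 20.2 to 135 ± 11.3 CPM (SD, n = 3 each) and fell by 0.37 on the log2 scale (SE 0.10, edgeR adjusted p = 0.0315). The call was lost without shEHD1+Dox replicate 1 (adjusted p = 0.119 by edgeR) and without shEHD1+Dox replicate 3 (0.0906), and over all 6 such fits the log2 fold change ran from -0.43 to -0.28. ADAMTSL4 shares 43 exonic bases with MCL1 on the opposite strand (-0.14, SE 0.47, edgeR adjusted p = 0.868).

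BCL2 (ENSG00000171791, chr18:63123346-63320128, minus strand) encodes the protein that gave the family its name. It had 435, 449 and 290 counts in shNTC+Dox against 311, 293 and 328 in shEHD1+Dox, or 16.5, 16.2 and 12.99 CPM against 10.9, 12.0 and 10.6 CPM. The groups did not overlap, with shNTC+Dox replicate 3 the control nearest to the depleted cells. The mean of BCL2 went from 15.2 ± 1.96 to 11.2 ± 0.72 CPM, and the gene fell by 0.45 on the log2 scale (SE 0.13, edgeR adjusted p = 0.0423). This call was the least firm of the 4: among the fits leaving out a library it passed only without shNTC+Dox replicate 3 (adjusted p = 0.00568 by edgeR), and without each of the other 5 libraries in turn the adjusted p was 0.0660 to 0.145.

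BCL2L1 (ENSG00000171552, chr20:31664452-31723989, minus strand), the gene of BCL-xL, was the antiapoptotic member with overlapping groups. It had 39.7, 38.6 and 35.0 CPM in shNTC+Dox against 33.2, 34.5 and 38.2 CPM in shEHD1+Dox. shEHD1+Dox replicate 3 lay inside the control range. The log2 fold change was -0.10 (SE 0.09, edgeR adjusted p = 0.474), which does not show that the level was the same. The gene has 15 annotated transcripts, and gene counts do not separate its long and short isoforms, which differ in their effect on cell death. ABALON, a long non-coding RNA gene, shares 1735 exonic bases with it on the opposite strand (log2 fold change -0.19, SE 0.28, edgeR adjusted p = 0.696).

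BAK1 (ENSG00000030110, chr6:33572547-33580293, minus strand), the effector among the members, had 24.6, 26.1 and 24.5 CPM in shNTC+Dox against 21.4, 21.5 and 22.8 CPM in shEHD1+Dox. All depleted libraries lay below all controls, but the distance was small. The log2 fold change of -0.19 (SE 0.08) did not pass the test (edgeR adjusted p = 0.152). The other effector genes, BAX and BOK, are named outside the rule for named genes, after their values were seen. BAX stood at 38.9 ± 5.82 and 35.5 ± 0.29 CPM (-0.13, edgeR adjusted p = 0.440). BOK stood at 83.7 ± 18.3 and 88.6 ± 3.64 CPM (0.08, edgeR adjusted p = 0.717). Neither passed the test, and the libraries of the groups overlapped for both genes. BOK passed as higher without shNTC+Dox replicate 3 (0.27, edgeR adjusted p = 0.0130).

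BMF (ENSG00000104081, chr15:40087890-40108892, minus strand), whose protein binds dynein light chain and antagonizes antiapoptotic members, was the BH3-only gene that fell among the members. Its counts were 2050, 2028 and 1686 in shNTC+Dox against 1643, 1406 and 1826 in shEHD1+Dox, or 77.9, 73.2 and 75.5 CPM against 57.7, 57.5 and 59.0 CPM. The depleted libraries were within 2 CPM of each other and all below the controls. BMF went from 75.5 ± 2.33 to 58.1 ± 0.82 CPM (SD, n = 3 each) and fell by 0.38 on the log2 scale (SE 0.06, edgeR adjusted p = 0.00556). It passed in all 6 fits that left out a library, with an adjusted p of at most 0.0355.

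The other BH3-only members did not pass. BCL2L11 (ENSG00000153094, chr2:111119378-111168444, plus strand), the gene of BIM, a strong binder of all antiapoptotic members, had 140, 143 and 130 counts in shNTC+Dox against 115, 113 and 145 in shEHD1+Dox. The CPM values, 5.32, 5.17 and 5.82 against 4.04, 4.62 and 4.69, did not overlap (log2 fold change -0.29, SE 0.16, edgeR adjusted p = 0.244). MIR4435-2HG, a non-coding RNA gene with 727 exonic bases shared on the opposite strand, had more counts than BCL2L11 in every library (299 to 444), and the counts of both genes summed gave 0.01 on the log2 scale (edgeR adjusted p = 0.935) (MIR4435-2HG alone 0.13, SE 0.11). Most exonic bases of MIR4435-2HG are outside BCL2L11, and how reads in the shared bases were assigned was not tested. BAD (ENSG00000002330, chr11:64269830-64284704, minus strand), whose protein is held by 14-3-3 proteins when AKT phosphorylates it, had 23.4, 24.1 and 21.8 CPM against 20.9, 18.4 and 21.5 CPM. These groups did not overlap either (-0.19, SE 0.10, edgeR adjusted p = 0.223). GPR137 shares 404 exonic bases with BAD on the opposite strand (0.14, SE 0.17, edgeR adjusted p = 0.623), and the counts of BAD and GPR137 summed gave -0.06 (edgeR adjusted p = 0.676).

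BID (ENSG00000015475, chr22:17734138-17774770, minus strand), which links caspase-8 to mitochondria, was the member with the smallest change. It had 37.8, 37.6 and 41.1 CPM in shNTC+Dox against 39.2, 37.0 and 38.3 CPM in shEHD1+Dox. The groups overlapped, and the log2 fold change was -0.03 (SE 0.07, edgeR adjusted p = 0.839). BIK (ENSG00000100290, chr22:43110750-43129712, plus strand), which encodes a BH3-only protein of the endoplasmic reticulum, had 0, 3 and 0 counts in shNTC+Dox against 9, 0 and 0 in shEHD1+Dox. It was not tested, and a difference was not detectable at this depth.

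**Figure D3:**
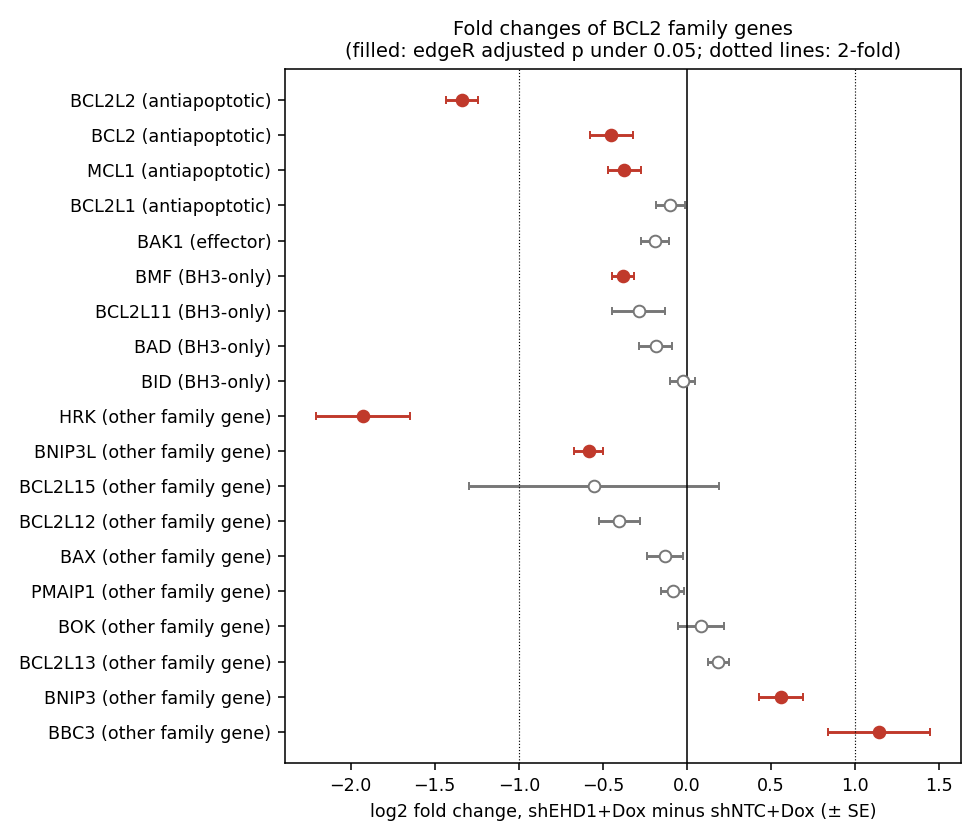
Log2 fold change (shEHD1+Dox minus shNTC+Dox, horizontal axis) of the 9 tested members and of 10 other BCL2 family genes, with bars for ± SE, red filled points for an edgeR adjusted p under 0.05, open grey points for the rest and dotted lines at a 2-fold change. BCL2L2 lies at -1.34, BCL2, BMF and MCL1 lie between -0.45 and -0.37, the members that did not pass lie between -0.29 and -0.03, and HRK (-1.93) and BBC3 (1.14) mark the ends of the other family genes.

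Levels were compared between members as CPM per kilobase of annotated exon. MCL1 was the most abundant member in the controls, at 28.2 ± 3.25 CPM per kb, and 90.9% of genes tested were lower. BMF (13.9 ± 0.43), BAD (13.5 ± 0.70), BAK1 (11.3 ± 0.41), BCL2L1 (8.997 ± 0.59), BID (8.79 ± 0.44) and BCL2L2 (6.77 ± 0.39) followed on the same scale. BCL2 (1.21 ± 0.16) and BCL2L11 (0.81 ± 0.05) were scarce, and BIK was near 0. Neighbours in this order were separated in the controls except for BMF and BAD and for BCL2L1 and BID, whose libraries overlapped. The order depends on the length used: per kilobase of canonical transcript, control levels ran from MCL1 (44.4 ± 5.12) through BAD (24.9 ± 1.29), BID (17.9 ± 0.89), BMF (16.1 ± 0.50), BCL2L1 (14.7 ± 0.96) and BAK1 (11.5 ± 0.42) to BCL2L2 (9.29 ± 0.53), without overlap between neighbours. On that scale BAK1 stood below BCL2L1 and BID, the reverse of the order per exon length, while MCL1 was highest and BCL2L2, BCL2 and BCL2L11 stood below the other tested members on both scales. In shEHD1+Dox, BCL2L2 was at 2.68 ± 0.19 and MCL1 at 21.8 ± 1.82 CPM per kb, while BAD (11.9 ± 0.95) stood above BMF (10.7 ± 0.15) and BID (8.63 ± 0.24) above BCL2L1 (8.40 ± 0.62), again with overlapping libraries.

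**Figure D4:**
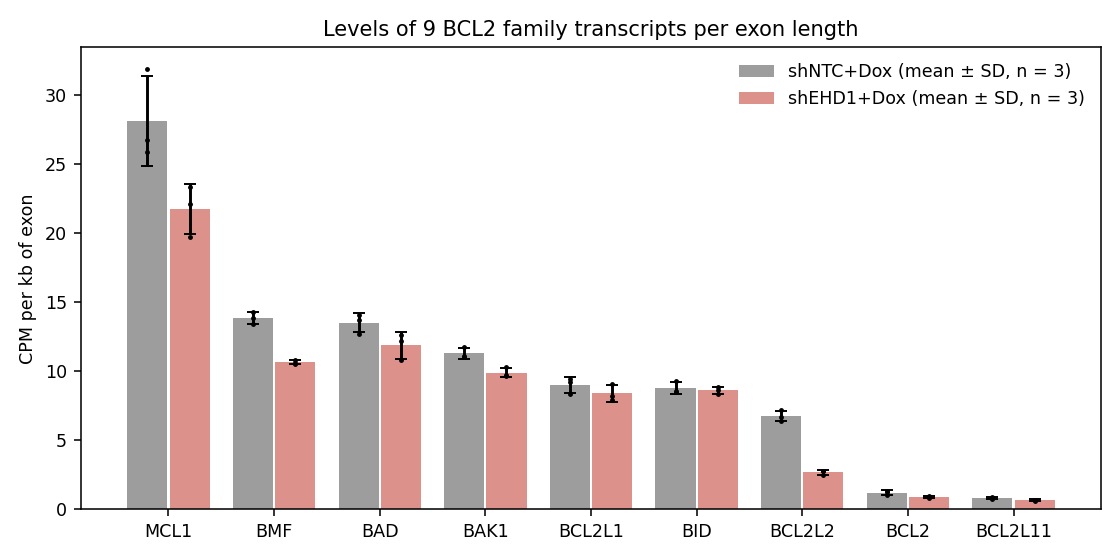
Mean level of 9 members in CPM per kilobase of annotated exon (linear axis from 0), ordered by the control mean, with grey bars for shNTC+Dox, red bars for shEHD1+Dox, error bars for SD (n = 3 each) and dots for the libraries. MCL1 is the tallest in both groups (28.2 and 21.8 CPM per kb), and BCL2L2 goes from 6.77 to 2.68 CPM per kb.

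The 4 antiapoptotic transcripts summed to 43.1, 43.9 and 48.4 CPM per kb in shNTC+Dox and to 31.3, 35.3 and 34.5 CPM per kb in shEHD1+Dox. The means were 45.1 ± 2.88 and 33.7 ± 2.11, without overlap. Within this sum MCL1 held 62.3 ± 3.12% in the controls and 64.5 ± 1.52% in depleted cells. BCL2L1 held 20.0 ± 2.50% and 25.0 ± 1.56%, and BCL2 held 2.699 ± 0.50% and 2.63 ± 0.17%. The BCL2L2 share was 14.9, 15.3 and 14.8% in shNTC+Dox against 8.85, 7.92 and 7.11% in shEHD1+Dox. These shares are descriptions of per-length levels and rest on the exon lengths used. They also rest on the counts given to BCL2L2 alone, whose log2 fold change was -1.34, against -0.91 when summed with BCL2L2-PABPN1. A share can grow because another shrinks, and the level of BCL2L1 itself did not rise (-0.10, edgeR adjusted p = 0.474).

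The sequences outside the coding region were searched for short words. A 3′ UTR word, AAGCTCT, was taken from an earlier analysis of these data, so its presence supports nothing by itself, and genes with and without it were not compared here. It was in the 3′ UTR of 2 of the 10 members, BCL2L2 and BCL2L11, against 2433 of 19452 canonical 3′ UTRs (12.51%, sense strand only), and both sites are printed because BCL2L2 had the largest change. Capitals mark the word within 27 bases of hg38, plus strand.
BCL2L2 3′ UTR (chr14:23311602-23311628): gaagaaaagaAAGCTCTataaatataa
BCL2L11 3′ UTR (chr2:111168137-111168163): cagactatagAAGCTCTcttatgtttt
The word was absent from the canonical 3′ UTRs of the other members, BCL2, MCL1 and BMF among them, of BCL2L2-PABPN1 (889 bases) and of EHD1 (2691 bases). The 3′ UTRs of BCL2L2 and BCL2L11 are 2786 and 4213 bases long. The shRNA sequence is not given in the sources used here, and whether the word matches it was not tested.

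RefSeq promoters (GRCh38.p14, 300 bases around each start) matched 7 of the 10 members. They were searched on both strands for a forkhead word (TGTTTAC), an AP-1 word (TGACTCA) and E2F words (TTTCCCGC, TTTGGCGC, TTTCGCGC), which 3.42%, 4.95% and 2.74% of 35116 promoters held. Members without a matched promoter were not searched for these words. Among the 7 searched, the only match was the forkhead word in the promoter of BCL2L11, 223 bases before the start. BCL2L11 is a gene known to respond to FOXO factors. The site is printed with the word in capitals, read on the plus strand, where the word appears as its reverse complement.
BCL2L11 promoter (chr2:111120681-111120707): agttactccgGTAAACAcgccagggac
BCL2L11 did not pass the test, and a match describes letters in the window only.

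The members were set beside 83 other genes of the apoptosis pathway in 6 lists, of which 76 were tested. Of these, 13 rose and 9 fell by edgeR (17.3% of all genes passed in either direction), with a median log2 fold change of -0.0087. Without a library in turn, the number that passed was 8 without shEHD1+Dox replicate 1 or 3, 13 without shNTC+Dox replicate 1, 14 without shEHD1+Dox replicate 2 and 17 or 26 without shNTC+Dox replicate 2 or 3. Up to 3 genes with the smallest adjusted p are named for each list, and no list was tested as a set.

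**Figure D5:**
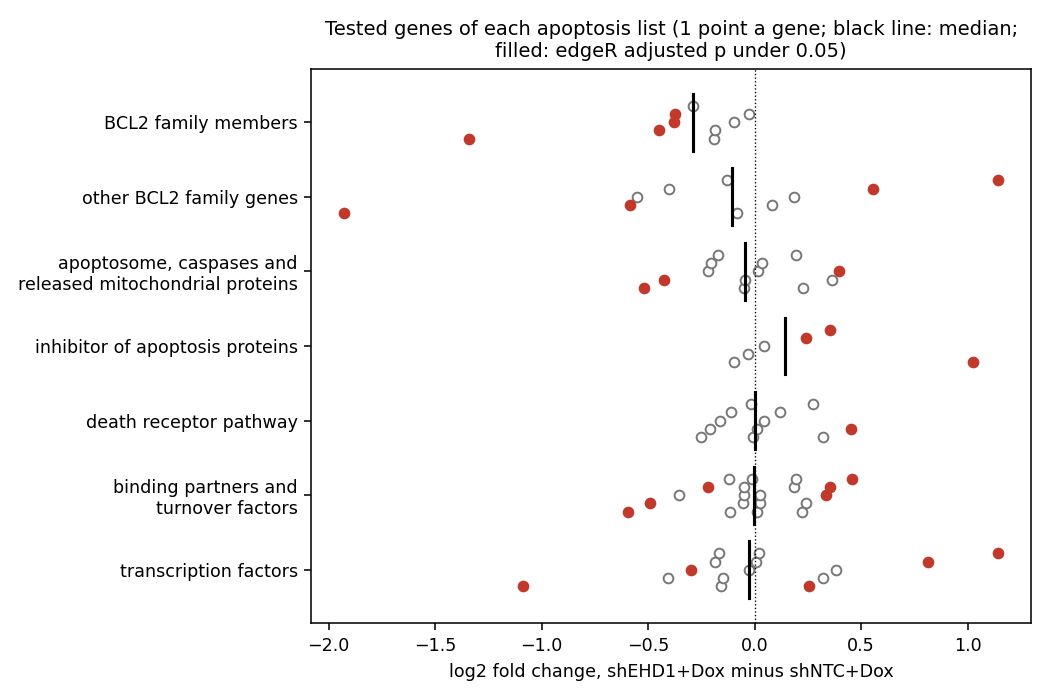
Log2 fold change (shEHD1+Dox over shNTC+Dox) of each tested gene in the family and in the 6 pathway lists, with red filled points for an edgeR adjusted p under 0.05 and a black line for the median of each list. The tested family members all lie below 0 (median -0.29), while the pathway lists have points on both sides of 0.

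Among 10 tested genes of the wider BCL2 family, 2 rose and 2 fell (over all genes tested, 8.59% rose and 8.75% fell). HRK, a BH3-only gene best known from neurons, had 176, 196 and 81 counts in shNTC+Dox against 39, 43 and 45 in shEHD1+Dox. It fell by 1.93 on the log2 scale (SE 0.28, edgeR adjusted p = 0.00289), although shNTC+Dox replicate 3 lay well below the other controls. The mitophagy receptor genes BNIP3L and BNIP3 moved in opposite directions. BNIP3L fell from 59.4 ± 3.33 to 39.6 ± 3.39 CPM (-0.59, SE 0.09, edgeR adjusted p = 0.00290). BNIP3 rose from 29.0 ± 5.66 to 42.8 ± 1.93 CPM (0.56, SE 0.13, edgeR adjusted p = 0.0212). BBC3 (PUMA), a BH3-only gene activated by p53 and named after its values were seen, had 36, 68 and 32 counts against 141, 69 and 120 and rose by 1.14 on the log2 scale (SE 0.30, edgeR adjusted p = 0.0335). BBC3 was thus a BH3-only transcript that was higher while BMF and HRK were lower. HRK and BNIP3L passed in all 6 fits that left out a library. BNIP3 did not pass without shNTC+Dox replicate 1 or any single shEHD1+Dox library (adjusted p 0.0572 to 0.0759 by edgeR), and BBC3 did not pass without shNTC+Dox replicate 1, shEHD1+Dox replicate 1 or shEHD1+Dox replicate 3 (0.0974 to 0.130). BCL2A1 and BCL2L10 had 0 counts in all libraries.

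Downstream of the mitochondria, 1 of 13 genes rose and 2 fell (over all genes tested, 8.59% rose and 8.75% fell). CYCS, which encodes cytochrome c and has many pseudogene copies that could share its reads, fell from 356 ± 47.4 to 248 ± 18.1 CPM (-0.52, SE 0.10, edgeR adjusted p = 0.0102). APAF1, the scaffold of the apoptosome, fell from 60.7 ± 2.36 to 45.2 ± 4.49 CPM (-0.43, SE 0.09, edgeR adjusted p = 0.0118). HTRA2, a mitochondrial protease that binds inhibitor of apoptosis proteins, rose from 36.0 ± 0.73 to 47.4 ± 4.44 CPM (0.40, SE 0.08, edgeR adjusted p = 0.0147). The CYCS call was lost without shEHD1+Dox replicate 3 (adjusted p = 0.0503 by edgeR), that of APAF1 without shEHD1+Dox replicate 1 (0.0548) or 3 (0.0513), and that of HTRA2 without these or shNTC+Dox replicate 1 (0.0554 to 0.0677).

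Of 6 tested inhibitor of apoptosis genes, 3 rose and the other 3 did not pass (8.59% of all genes tested rose). BIRC3, a target of NF-κB, went from 2.97 ± 1.11 to 6.07 ± 0.47 CPM (1.03, SE 0.27, edgeR adjusted p = 0.0346). BIRC5, which encodes survivin, went from 208 ± 29.7 to 266 ± 12.7 CPM (0.36, SE 0.10, edgeR adjusted p = 0.0406). XIAP, a direct caspase inhibitor, went from 98.5 ± 2.66 to 117 ± 7.67 CPM (0.24, SE 0.07, edgeR adjusted p = 0.0457). These calls were fragile: BIRC5 and XIAP passed only without shNTC+Dox replicate 3 among the fits that left out a library, and BIRC3 only without shNTC+Dox replicate 1 or 3. In the death receptor list CASP10 alone of 12 tested genes rose (8.59% of all genes tested rose). CASP10 went from 31.8 ± 5.43 to 43.6 ± 1.93 CPM (0.45, SE 0.12, edgeR adjusted p = 0.0344), and it did not pass without any single shEHD1+Dox library (0.0894 to 0.104).

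Of 20 tested binding partners and turnover factors, 3 rose and 3 fell (over all genes tested, 8.59% rose and 8.75% fell). BECN1, an autophagy gene whose protein binds BCL2, fell from 48.2 ± 2.31 to 34.4 ± 1.10 CPM (-0.49, SE 0.07, edgeR adjusted p = 0.00316). BAG1, which encodes a BCL2-binding co-chaperone, fell from 51.7 ± 11.6 to 34.2 ± 1.08 CPM (-0.59, SE 0.14, edgeR adjusted p = 0.0230). BTRC, a ubiquitin ligase subunit gene, rose from 42.7 ± 3.08 to 58.6 ± 1.76 CPM (0.46, SE 0.08, edgeR adjusted p = 0.00527). BECN1 and BTRC passed in all 6 fits that left out a library, and BAG1 did not pass without any single shEHD1+Dox library (0.0735 to 0.0861).

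Of 15 transcription factors known to act on family genes, 3 rose and 2 fell (over all genes tested, 8.59% rose and 8.75% fell). NFKB1 rose from 23.3 ± 1.56 to 41.0 ± 1.43 CPM (0.81, SE 0.08, edgeR adjusted p = 5.41e-04). JUN, a subunit of AP-1, rose from 9.62 ± 2.61 to 21.3 ± 2.46 CPM (1.14, SE 0.19, edgeR adjusted p = 0.00487). E2F1 fell from 69.3 ± 16.4 to 32.6 ± 4.87 CPM (-1.09, SE 0.17, edgeR adjusted p = 0.00582). All 3 genes passed in all 6 fits that left out a library.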

How the data were processed

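Total RNA of TC71 cells was sequenced as 6 paired-end, unstranded libraries. The authors deposited 1 table of whole-number counts for 60676 genes on hg38, and per the labels the processing notes name STAR 2.7.3a and DESeq2, while the study's methods describe hisat2 alignment guided by Ensembl annotation and StringTie quantification. Which of these made the deposited counts is unsettled. Replicates were grouped by the shRNA label. Deposited counts were tested with edgeR 4.0.16 (R 4.3.3, TMM scaling, robust quasi-likelihood test, Benjamini-Hochberg adjustment over all 16785 genes with at least 10 counts in 3 libraries, threshold 0.05). Log2 CPM used a prior count of 2. The common biological coefficient of variation, from a single dispersion for all genes tested, was 15%. With 3 against 3 libraries, an exact permutation test cannot go below p = 0.1, so it decided no call. GENCODE v44 gave positions, exons and lengths, and 60357 identifiers matched. Promoters came from RefSeq.

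Named genes were all members, EHD1, up to 3 genes per pathway list with the smallest adjusted p under 0.05, and genes sharing exons with a member. Members and lists were chosen with earlier results of these data known. Alternatives were DESeq2 1.42.0 size factors and its Wald test, other count filters, a replicate block, leaving out each library, summing genes that share exons, and canonical transcript lengths. Scripts were tested on simulated counts, on which DESeq2 made more false calls than edgeR and its limit on false calls was dropped after that result was seen. Libraries grown without Dox were not analysed here.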

Additional observations from a re-analysis of the deposited data

How the results depend on the processing

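Values of BCL2L2, BMF and EHD1 kept their direction and passed the test under every alternative run for them. The size of the BCL2L2 change was smaller in the summed counts, none of which reached a 2-fold change. Against -1.34 in the main fit, it was -0.91 with the read-through gene and -0.69 with the genes that share exons. With the read-through gene and PABPN1 it was -0.39. The BCL2 call was lost with no filter on low counts (log2 fold change -0.43, adjusted p = 0.0643) and ranged from -0.55 to -0.39 when each library was left out, and MCL1 from -0.43 to -0.28. The number of members passing was 3 with no filter, and 2 to 4 without each library. The genes passing over the whole table numbered 1322 to 3616 without each library, and 293 to 452 at 2-fold. Pathway genes numbered 8 to 26. By the DESeq2 Wald test 3622 genes passed.

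Replicate numbers did not pair the libraries, with correlations of deviations of 0.072, -0.059 and -0.045 for the same-numbered pairs. Fitted with a replicate block, 1766 genes, 14 pathway genes and 3 members passed. Under the block the BCL2 call was lost (-0.44, adjusted p = 0.0753).

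BCL2L11 reversed to 0.0143 when summed with the gene that shares its exons. Leaving out a library turned the sign of BID (-0.0507 to 0.0144), PPP1R3E (-0.0859 to 0.23), BCL2L2-PABPN1 (-0.41 to 0.0145), ADAMTSL4 (-0.36 to 0.13) and BOK (-0.0171 to 0.27). Per kilobase of canonical transcript, control levels were 44.4 CPM for MCL1, 24.9 for BAD, 17.9 for BID, 16.1 for BMF, 14.7 for BCL2L1, 11.5 for BAK1, 9.29 for BCL2L2, 2.22 for BCL2 and 1.07 for BCL2L11, an order in which BAD and BID stood above BMF, and BID and BCL2L1 above BAK1. The BCL2L11 sum held more counts of MIR4435-2HG than of BCL2L11 in every library, and the order of levels depends on the length used. The cause of the sign changes without a library was not tested, and 10 counts in 3 libraries limits what could be tested of BIK.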
